A study of Mus musculus with 14 samples.

Results

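The 9 genes Lif, Ihh, Hand2, Bmp2, Msx1, Msx2, Calca, Hbegf and Nr2f2 were followed through every ovary and uterus library of the study. They were listed by symbol as genes of embryo implantation and uterine receptivity and were matched to the deposited Ensembl identifiers through GENCODE mouse M21, which found 9 of 9 among 21853 protein-coding genes. The uterus accepts an embryo only within a short window that ovarian progesterone and estrogen open. Progesterone acts on the epithelium to release Indian hedgehog, and the stroma below answers through its hedgehog receptor, COUP-TFII and HAND2, which hold back growth signals to the epithelium. Estrogen then raises LIF in the glands, the MSX factors are switched off as the embryo attaches, and HB-EGF and BMP2 take part in attachment and in the change of stroma into decidua.

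RNA was sequenced from the ovaries and uteruses of 7 female C57BL/6J mice, 3 in the old control (OC) and 4 in the old treatment (OT) group (14 libraries, 4 groups of treatment and tissue). Their age was 28 weeks. OT mice received conditioned medium of human amniotic membrane-derived mesenchymal stem cells (AMSC-CM), mixed from several donors, by tail vein 6 times at intervals of 4 days. OC mice received saline in the same way. All mice, controls included, had been given a pair of gonadotropins of 10 IU each, 48 h apart, to align their cycles. The labels name no pregnancy, and the cycle stage of each mouse was not given in the sources used here. Ovary and uterus libraries with the same mouse label were taken as 1 animal.

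Levels are given in FPKM, the fragments assigned to a gene per kilobase of its transcript and scaled to the mapped fragments of its library. This allows for transcript length and depth, but not for differences between libraries in summed FPKM. The summed FPKM lay between 374816 and 397644 in the 7 ovaries and between 425875 and 577494 in the 7 uteruses, with the highest sum in the OT1 uterus. The labelled tissues matched their markers, since the luteal and theca genes summed to between 5160 and 6400 FPKM in ovaries and to between 5.19 and 10.5 FPKM in uteruses. The uteruses of the treatment groups also differed in markers of other cells. A call required a log2 change of at least 1 in size and an unadjusted p of at most 0.05 in limma, as below. All 5 adipocyte markers were called higher in OT uteruses, against 2.23% of 14151 tested genes. The adipocyte sum was 34.0 to 140 FPKM in OC and 550 to 4950 FPKM in OT uteruses. All 5 stratified squamous markers were called higher as well, with sums of 1.30 to 9.84 FPKM in OC and 36.0 to 689 FPKM in OT uteruses. Of 5 B and plasma cell markers 4 were called higher, with sums of 7.23 to 10.8 FPKM in OC and 15.3 to 102 FPKM in OT uteruses. None of 5 smooth muscle and 5 stromal markers was called. Of the smooth muscle markers 3 were higher in every OT than in any OC uterus, against 6.46% of all tested genes. Pdgfra, 1 of the stromal markers, was lower in every OT than in any OC uterus, as were 5.48% of all tested genes. It was at 123.6 to 159 FPKM in OC and 85.3 to 118.2 FPKM in OT uteruses, and was the only 1 of the 5 with a change below 0. The smooth muscle sum was 5150 to 6100 FPKM in OC and 6420 to 9980 FPKM in OT uteruses. The stromal sum was 4010 to 4200 FPKM in OC and 4050 to 5480 FPKM in OT uteruses, and the uterine epithelial sum was 251 to 356 FPKM and 181 to 347 FPKM. Within the epithelial list, Epcam (17.4 FPKM), Cdh1 (10.81), Krt18 (65.55) and Foxa2 (0.4384) in the OT1 uterus lay below every OC uterus. Krt8 (42.32 FPKM) and Krt19 (93.76) in OT1 lay within the OC range. The lowest epithelial sum was that of OT3, where Epcam (44.58 FPKM), Cdh1 (25.18), Krt8 (22.77) and Krt18 (45.85) lay below every OC uterus. Krt19 (39.47 FPKM) in OT3 lay within the OC range and Foxa2 (3.385) above it. In OT2, Epcam (39.73 FPKM) and Foxa2 (0.7937) were also below every OC uterus. The OT1 uterus held the most adipocyte RNA, and OT1 was also the library with brown adipocyte and urothelial sums of 363 and 157 FPKM, against at most 6.41 and 8.29 FPKM in any OC uterus. The part of these cells in the results below was not tested. In whole tissue, fewer cells of a type and less RNA per cell cannot be told apart.

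In the uterus, Nr2f2 had the highest level of the 9 genes (mean 120.1 FPKM, SD 30.1, n = 7), followed by Msx1 (39.6, SD 25.6) and Hand2 (19.1, SD 5.57). Ihh, Calca, Hbegf, Bmp2, Msx2 and Lif followed with means between 3.17 and 1.12 FPKM. The ranges of neighbours in this order overlapped at every step, whereas those of Nr2f2 (72.1 to 162) and Hand2 (10.9 to 27.5) did not. In the ovary, Nr2f2 was again first (56.9, SD 9.25, n = 7) and its range lay above that of every other member. Msx1, Ihh, Bmp2, Hand2 and Hbegf came next with means between 5.29 and 2.26 FPKM. Calca (0.952, SD 0.352), Lif (0.463, SD 0.0864) and Msx2 (0.426, SD 0.134) were lowest, and Lif and Msx2 fell below the mean of 0.5 FPKM required for a test within the ovary.

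**Figure D1:**
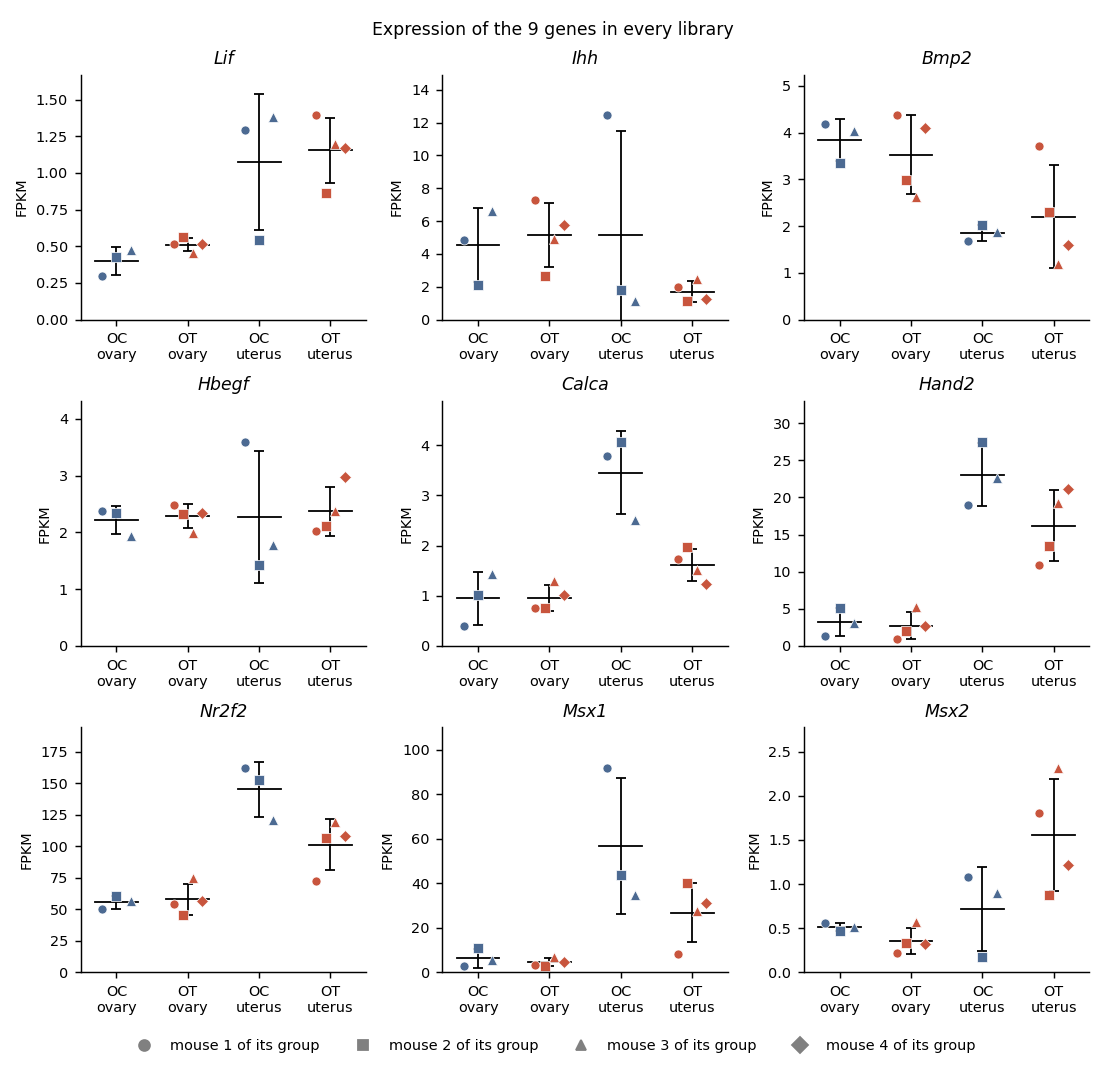
FPKM (vertical axis, from 0) of the 9 genes in the 14 libraries, by treatment and tissue (horizontal axis). Blue marks OC and red OT, the marker shape gives the mouse number within its group, and black lines give the group mean and SD (the bar of Ihh in OC uteruses is cut at 0). In the uterus the 4 OT points of Calca and of Nr2f2 lie below the 3 OC points, and the OC1 uterus stands above the others for Ihh and Msx1.

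AMSC-CM and saline were first compared in the uterus. A gene was called when its log2 change was at least 1 in size with an unadjusted p of at most 0.05 in limma, the cutoffs of the study. Of the 9 genes, 1 was called, Calca, which was lower in OT, against 0.664% of 14151 tested genes called lower. Over all tested genes 2.23% were called higher and 2.90% in either direction. All OT values lay below all OC values for 2 of the 9 genes, Calca and Nr2f2, against 5.48% of all tested genes. The median log2 change of the 9 genes was -0.53, and 5 of 9 were below 0, whereas the median of all tested genes was 0.01. After Benjamini-Hochberg adjustment 0 uterine genes were under 0.05 in limma (0.00%). The smallest adjusted p was 0.266, and 1160 genes had an unadjusted p of at most 0.05, which is 8.20%. A fit of all 14 libraries, with the spread shared between tissues, put 47 uterine genes under 0.05.

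Calca encodes calcitonin and, by splicing, the vasodilator peptide CGRP, and calcitonin is known as a progesterone-induced product of the uterine epithelium. Its gene lies at chr7:114631478-114636357 on the minus strand of mm10, with 6 coding transcripts in the annotation, which a level per gene cannot tell apart. The uterine levels were 3.78, 4.07 and 2.51 FPKM in OC1 to OC3 and 1.74, 1.96, 1.51 and 1.23 FPKM in OT1 to OT4. Every OT uterus was thus below every OC uterus, and the ratio of the OC to the OT mean was 2.14. The log2 change was -1.04 (SE 0.27, 95% interval -1.66 to -0.43) with an unadjusted p of 0.0045 and an adjusted p of 0.485 by limma. The exact two-sided permutation test over 35 splits gave 0.0571, the smallest p that 3 against 4 libraries allow. The fold lies close to the cutoff, and the call was lost without OC1 (-0.97), OC2 (-0.91) or OT4 (-0.93), while the unadjusted p remained at most 0.0263 whichever library was left out. In the ovary, Calca was at 0.399, 1.01 and 1.44 FPKM in OC and at 0.757, 0.750, 1.30 and 1.02 FPKM in OT. These groups overlapped, with a log2 change of 0.13 (SE 0.42).

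The receptor side of CGRP was measured with it. Of 9 genes of the CGRP family and its receptors, 5 were tested in the uterus and none was called in either direction. The most abundant were Ramp2 and Ramp1, accessory proteins that give the calcitonin receptor-like receptor its ligand preference. Their log2 changes in the uterus were -0.25 (SE 0.14) and -0.07 (SE 0.13).

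The 250 bases upstream of the RefSeq start of Calca are shown since it is the member that was called, at chr7:114636358-114636607, minus strand, GRCm38.p6, which has the coordinates of mm10. Capitals mark an E-box (CANNTG) and a TGACG half-site of the cAMP response element.

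Calca upstream: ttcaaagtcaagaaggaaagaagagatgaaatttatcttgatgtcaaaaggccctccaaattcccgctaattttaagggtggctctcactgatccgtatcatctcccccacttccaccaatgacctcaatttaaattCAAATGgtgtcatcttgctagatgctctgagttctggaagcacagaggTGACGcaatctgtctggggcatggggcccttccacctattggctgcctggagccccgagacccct

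Of all 32851 RefSeq mouse promoter windows of the same length, 66.2% held an E-box and 17.8% a TGACG on either strand, so these matches describe the sequence and mark no site. The window also held the CCAAT box in both orientations, as 33.8% of windows held at least once. It held no AGAACA, the half-site of the progesterone receptor (16.1% of windows), no GLI site GACCACCCA (0.225%) and no TATAAA (12.4%).

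Nr2f2 encodes COUP-TFII, an orphan nuclear receptor of the uterine stroma that acts downstream of hedgehog. Its levels in the uterus were 162, 153 and 121 FPKM in OC1 to OC3 and 72.1, 107, 119 and 108 FPKM in OT1 to OT4. The OT values were all below the OC values, although OT3 and OC3 lay close together. The log2 change of -0.53 (SE 0.20, 95% interval -0.99 to -0.07) was under the fold cutoff and had an unadjusted p of 0.0282 and an adjusted p of 0.564 by limma (exact permutation p = 0.0571). Without OC1 or OC2 the unadjusted p was 0.0985 and 0.0862 by limma. Without OT1 the log2 change was -0.38, with an unadjusted p of 0.0239 by limma. Ovarian levels ranged from 50.2 to 60.3 FPKM in OC and from 45.7 to 74.9 FPKM in OT, with a log2 change of 0.04 (SE 0.15).

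Hand2 encodes a basic helix-loop-helix factor that progesterone induces in the stroma, where it lowers fibroblast growth factor signals to the epithelium. The OC uteruses held 19.1, 27.5 and 22.7 FPKM and the OT uteruses 10.9, 13.5, 19.2 and 21.1 FPKM. The groups overlapped in the range of OT3, OT4 and OC1, and OT1 was lowest. The log2 change was -0.54 (SE 0.25) with an unadjusted p of 0.0639 by limma and no call. Of 6 FGF ligands and receptors listed with HAND2, all 6 were tested and none was called, and their median change in the uterus was 0.48, the only one of the 9 partner lists with a median above 0. Fgf2 was at 5.77 to 7.31 FPKM in OC and 7.45 to 19.6 FPKM in OT uteruses, and Fgfr1 at 17.7 to 19.3 and 20.1 to 29.9 FPKM. Both had every OT value above every OC value, as had 6.46% of all tested genes, and their log2 changes were 0.74 (SE 0.32) and 0.34 (SE 0.17). Every listed FGF ligand was highest in the OT1 uterus, the library with the most adipocyte RNA. The OT1 levels were 28.6 FPKM for Fgf1, 19.6 for Fgf2, 8.225 for Fgf9 and 1.58 for Fgf18. Of the receptors, Fgfr1 was highest in OT3 and Fgfr2 was lowest in OT1 (24.7 FPKM). Fgfr2, the most abundant FGF receptor here, changed by -0.40 (SE 0.33) on the log2 scale.

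The upstream 250 bases of Nr2f2 (chr7:70366747-70366996, minus strand) and Hand2 (chr8:57320733-57320982, plus strand) are shown together because both encode stromal transcription factors of the same pathway with similar changes. Capitals mark CANNTG and TGACG as above.

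Nr2f2 upstream: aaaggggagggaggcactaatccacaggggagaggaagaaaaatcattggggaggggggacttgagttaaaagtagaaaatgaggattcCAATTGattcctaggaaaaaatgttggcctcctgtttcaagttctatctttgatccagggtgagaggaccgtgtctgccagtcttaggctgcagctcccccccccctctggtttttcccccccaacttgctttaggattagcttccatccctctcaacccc

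Hand2 upstream: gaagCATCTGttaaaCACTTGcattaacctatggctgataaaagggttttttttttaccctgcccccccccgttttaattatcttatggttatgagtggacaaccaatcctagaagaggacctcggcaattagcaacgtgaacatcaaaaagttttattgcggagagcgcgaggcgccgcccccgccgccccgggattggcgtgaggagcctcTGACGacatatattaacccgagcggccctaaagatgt

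Nr2f2 held 1 E-box and Hand2 held 2, and only Hand2 of these held TGACG. Neither window held AGAACA, GACCACCCA or TATAAA. RefSeq windows were matched for 7 of the 9 genes, all but Bmp2 and Hbegf.

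Msx1 and Msx2 encode homeobox factors that keep the epithelium receptive and are lost at attachment. Msx1 was at 91.7, 43.9 and 34.6 FPKM in OC and at 8.46, 40.1, 27.5 and 31.3 FPKM in OT uteruses. OC1 was highest and OT1 lowest, and the remaining libraries lay between 27.5 and 43.9 FPKM. The log2 change of -1.15 (SE 0.55) passed the fold cutoff and not the p cutoff, with an unadjusted p of 0.069 by limma. It was -0.74 without OC1 and -0.67 without OT1, and the gene was called without OT2 (-1.41, unadjusted p = 0.0417 by limma). Msx2 went the other way. It was at 1.08, 0.174 and 0.902 FPKM in OC and at 1.80, 0.882, 2.31 and 1.22 FPKM in OT uteruses, so that the groups overlapped and OC2 was lowest. Its log2 change was 1.19 (SE 0.58, unadjusted p = 0.0766 by limma), and 0.52 without OC2. The gene was called without OC1 (1.58, unadjusted p = 0.0425 by limma) and in the fit of all 14 libraries (unadjusted p = 0.0316 by limma). At levels near 1 FPKM the values of Msx2 rest on few fragments.

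Wnt5a, a WNT ligand placed downstream of MSX, was at 78.8, 61.7 and 63.4 FPKM in OC and at 27.6, 39.1, 43.9 and 42.8 FPKM in OT uteruses. All OT values were lower, as for 5.48% of all tested genes. The log2 change was -0.84 (SE 0.19, unadjusted p = 0.0022, adjusted p = 0.396 by limma), under the fold cutoff. The ovarian change was -0.02 (SE 0.14). Of the 5 WNT genes listed with MSX, all were tested in the uterus and none was called. Ctnnb1, the most abundant, encodes beta-catenin and changed by -0.11 (SE 0.12).

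**Figure D2:**
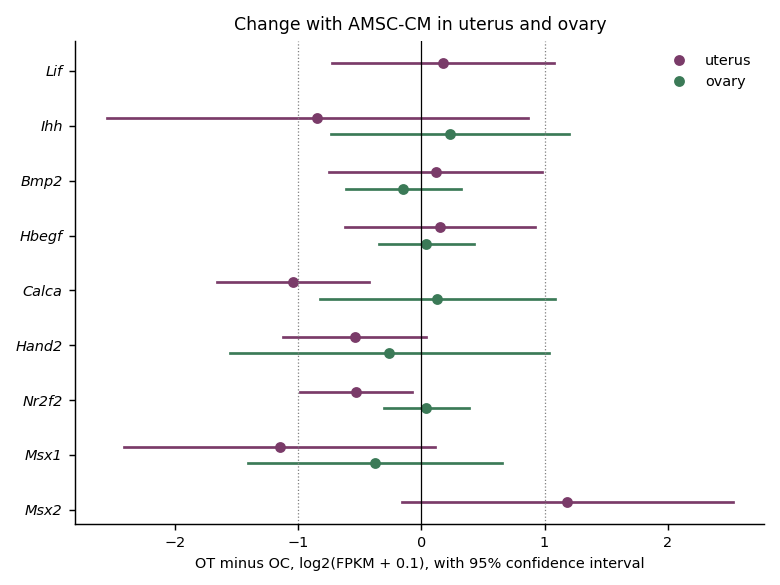
Log2 change from OC to OT (horizontal axis, log2 of FPKM + 0.1) for each gene (vertical axis) in uterus (purple) and ovary (green), with the limma estimate as a point and its 95% interval as a line. Dotted lines mark the fold cutoff of 1 in either direction. The uterine intervals of Calca and Nr2f2 lie below 0, all ovarian intervals include 0, and Lif and Msx2 have no ovarian estimate.

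Ihh encodes Indian hedgehog, the epithelial ligand that carries the progesterone signal to the stroma. It was at 12.4, 1.82 and 1.12 FPKM in OC and at 1.97, 1.13, 2.45 and 1.25 FPKM in OT uteruses. The OC1 uterus stood alone, and the other 6 lay between 1.12 and 2.45 FPKM in both groups. The log2 change of -0.85 (SE 0.74, unadjusted p = 0.288 by limma) therefore rested on OC1, without which it was 0.17. In OC1 the endothelial and epithelial factor Sox17 was also highest, at 191 FPKM against 4.76 to 74.5 FPKM in the other uteruses.

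Of the 8 genes listed for the hedgehog pathway all were tested and 1 was called lower, against 0.664% of all tested genes. The called gene was Gli1, a transcription factor whose own expression reports hedgehog activity, at chr10:127329882-127341974. It was at 17.8, 18.4 and 13.7 FPKM in OC and at 4.60, 5.72, 8.49 and 9.32 FPKM in OT uteruses. No OT uterus reached the lowest OC value, as for 5.48% of all tested genes, and the ratio of the OC to the OT mean was 2.37. The log2 change was -1.27 (SE 0.26, 95% interval -1.88 to -0.67) with an unadjusted p of 0.0013 and an adjusted p of 0.357 by limma. Gli1 was called whichever library was left out, with log2 changes from -1.43 to -1.09. Ptch1, the hedgehog receptor and itself a target of the pathway, was at 29.4, 23.7 and 22.1 FPKM in OC and at 8.79, 12.4, 14.2 and 16.0 FPKM in OT uteruses. Its log2 change was -0.98 (SE 0.22, unadjusted p = 0.0020, adjusted p = 0.396 by limma), just under the fold cutoff. Smo, the membrane transducer that is not a target, was at 40.7 to 42.3 and 34.0 to 45.2 FPKM, a log2 change of -0.06 (95% interval -0.37 to 0.25). Hhip, a decoy receptor and likewise a target of the pathway, was at 0.997 to 1.61 and 0.523 to 2.82 FPKM, a log2 change of 0.04 (SE 0.52). Gli2, Gli3 and Sufu also had overlapping groups, with changes from -0.44 to -0.20. The median over the 8 was -0.38.

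In the ovary the same genes gave no call. Gli1 lay between 3.21 and 7.69 FPKM in the 7 ovaries, both extremes in OT, with a log2 change of 0.06 (SE 0.29), and Ptch1 changed by -0.04 (SE 0.11). The difference between the tissues in these changes was -1.34 (SE 0.42) for Gli1, with an unadjusted p of 0.0073 and an adjusted p of 0.844 by limma. It was -0.94 (SE 0.25) for Ptch1, with the same adjusted p. Over all tested genes, 5.12% had an unadjusted p of at most 0.05 in this contrast and 0 had an adjusted p under 0.05.

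**Figure D3:**
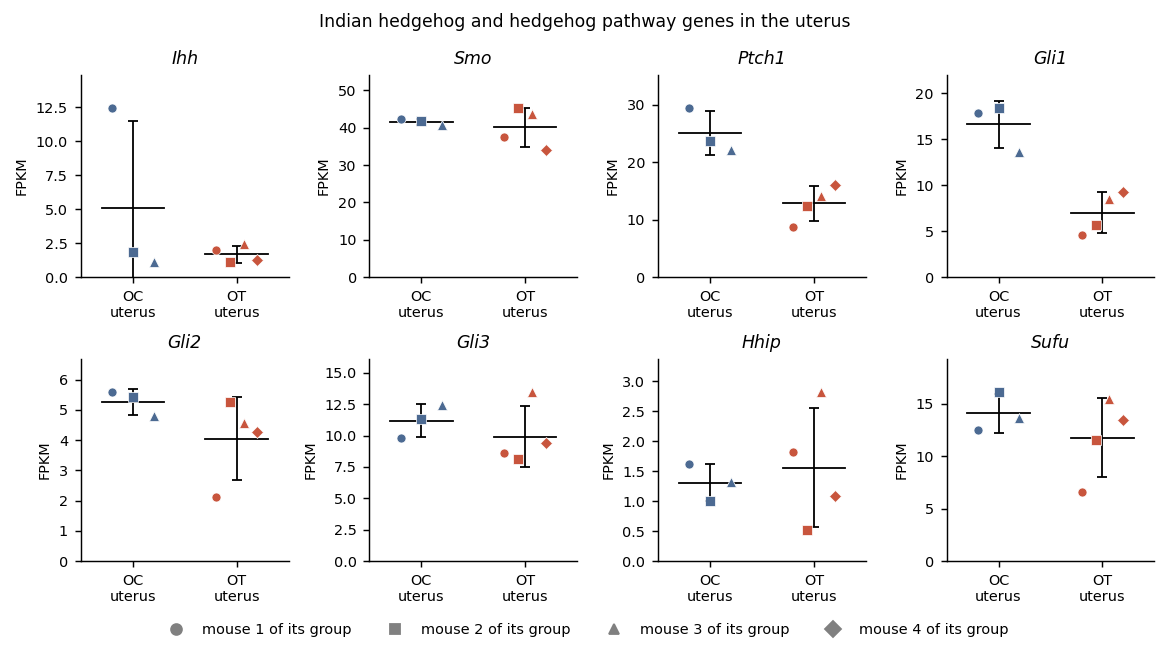
FPKM (vertical axes, from 0) of Ihh and the hedgehog genes Smo, Ptch1, Gli1, Gli2, Gli3, Hhip and Sufu in the 7 uteruses, by treatment (horizontal axis). Blue marks OC and red OT, shapes give the mouse number within its group, and black lines give mean and SD (the OC bar of Ihh is cut at 0). For Ptch1 and Gli1 all OT points lie below all OC points, whereas for Ihh only the OC1 point stands apart.

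Lif encodes leukemia inhibitory factor, the glandular cytokine that estrogen raises before attachment. It was at 1.29, 0.539 and 1.39 FPKM in OC and at 1.39, 0.861, 1.20 and 1.17 FPKM in OT uteruses. The groups overlapped over most of their range, with a log2 change of 0.17 (SE 0.39, 95% interval -0.73 to 1.08). Of the 8 genes of the LIF receptor pathway none was called in the uterus, and the change was -0.37 (SE 0.23) for Il6st, the shared receptor subunit gp130, and -0.14 (SE 0.13) for Jak1, its kinase. In the ovary 1 of the 8 was called as higher, against 0.368% of 14415 tested genes. This was Socs3, the feedback inhibitor of the pathway, at 7.82, 9.41 and 11.0 FPKM in OC and at 22.7, 20.3, 13.4 and 21.1 FPKM in OT ovaries. All OT ovaries were above all OC ovaries, as for 2.78% of all tested genes. The log2 change was 1.02 (SE 0.19), with an unadjusted p of 0.000542 and an adjusted p of 0.997 by limma. Leaving out OC1, OT1, OT2 or OT4 took the change under the fold cutoff, to between 0.89 and 0.99. Lif itself was at 0.294, 0.430 and 0.473 FPKM in OC and at 0.512, 0.561, 0.452 and 0.517 FPKM in OT ovaries, with an exact permutation p of 0.114 over 35 splits (two-sided).

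Bmp2 encodes a bone morphogenetic protein that the stroma needs to form decidua. It was at 1.68, 2.02 and 1.88 FPKM in OC and at 3.72, 2.30, 1.20 and 1.60 FPKM in OT uteruses. The OC libraries lay within the range of the OT libraries, and the log2 change was 0.12 (SE 0.38). Of 16 BMP and decidual genes, 15 were tested in the uterus and none was called. The homeobox genes Hoxa10 and Hoxa11, which mark the identity of the uterus and are needed for decidua, were the most abundant of them. Hoxa10 was at 214 to 236 FPKM in OC and 138 to 186 FPKM in OT uteruses, and Hoxa11 at 64.4 to 73.2 and 41.7 to 60.1 FPKM. All OT values were lower for both, as for 5.48% of all tested genes, with log2 changes of -0.46 (SE 0.14) and -0.45 (SE 0.16).

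Hbegf encodes the heparin-binding EGF-like growth factor that the epithelium makes where an embryo attaches. It was at 3.60, 1.43 and 1.79 FPKM in OC and at 2.03, 2.10, 2.37 and 2.98 FPKM in OT uteruses. OC1 was highest and OC2 lowest, so that the OT values lay within those of OC, and the log2 change was 0.15 (SE 0.34). In the EGF family list, 7 of 10 genes were tested and none was called. Egfr, its receptor, was at 29.5 to 34.5 FPKM in OC and 23.5 to 29.1 FPKM in OT uteruses, a log2 change of -0.26 (SE 0.13), and Erbb3 changed by -0.63 (SE 0.51).

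The remaining lists hold the hormone receptors and the genes of a receptive epithelium. Of 10 steroid receptor genes and partners 9 were tested in the uterus and none was called. Esr1, the estrogen receptor of the uterus, was at 169 to 178 FPKM in OC and 89.5 to 165 FPKM in OT uteruses, with OT1 lowest, and changed by -0.35 (SE 0.22), while Pgrmc1 changed by -0.06 (SE 0.20). Of 12 epithelial and gland genes 11 were tested, 10 had a change below 0 and none was called. The exception was Ltf, an estrogen-induced epithelial gene, with a ratio of the OT to the OC mean of 1.52. It spanned 69.5 to 190 FPKM in OC and 24.2 to 318 FPKM in OT uteruses. In the ovary 10 of 11 tested genes of this list were also below 0, with a median log2 change of -0.43 and no call. Over all 83 partner genes, 74 were tested in the uterus, with a median log2 change of -0.23. Of these 74, 11 had all OT values below OC (14.9%, against 5.48% of all genes) and 2 had them above. Among the 11 were Esr1, Ncoa2, Il6st, Stat3, Ptch1, Gli1, Hoxa10, Hoxa11, Egfr and Wnt5a. The partner lists were chosen with earlier results of these data known, and they hold related genes of the same pathways. Their shares therefore describe the lists only. In the ovary 75 were tested, with a median of -0.07, 5 above (against 2.78% of all genes) and 2 below (3.13%).

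In the ovary, 7 of the 9 genes were tested and none was called, against 0.451% of all genes in either direction and 0.0832% as lower. No member had groups that did not overlap. The log2 changes ran from -0.38 for Msx1 to 0.23 for Ihh, with a median of 0.04. By limma 0 ovarian genes (0.00%) passed an adjusted p of 0.05, the smallest being 0.477, and 650 genes had an unadjusted p of at most 0.05 (4.51%). The intervals remained wide for the genes that varied most between mice, such as Hand2, whose 95% interval ran from -1.56 to 1.04, and were narrow for Nr2f2, from -0.30 to 0.39.

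The uterus and ovary were then compared across all 14 libraries for the relative level of each gene, since all 9 were detected in both organs. A gene was called when its log2 difference was at least 1 in size with an adjusted p under 0.05 by limma. Of the 9 genes 5 were called, all higher in the uterus, against 10.0% of 14557 tested genes called higher there and 9.59% called lower. These were Hand2 (log2 difference 2.84, SE 0.34), Msx1 (2.83, SE 0.39), Calca (1.29, SE 0.25), Lif (1.09, SE 0.23) and Nr2f2 (1.09, SE 0.13). Their adjusted p by limma lay between 1.36e-05 for Hand2 and 0.0012 for Lif. Each was higher in the uterus in 7 of 7 mice, with an exact paired permutation p of 0.0156, the smallest that 7 mice allow. Msx2 was higher in the uterus in 6 of 7 mice, all but OC2, with a log2 difference of 0.99 (SE 0.34, adjusted p = 0.0262 by limma), just under the fold cutoff. Summed FPKM differed between the tissues, and scaling each library to the same total moved the median log2 difference of all genes to -0.24 and the calls from 1457 higher and 1396 lower to 1058 and 1865. Under it Lif (0.95) and Nr2f2 (0.85) fell short of the fold cutoff, and Bmp2 (-1.13) and Ihh (-1.25) were called lower in the uterus. Hand2, Msx1 and Calca were called under both scalings tried. Under quantile normalization Nr2f2 was at 0.97 and Msx2 was called (1.38), and without OC1 Lif was at 0.92 and Ihh was called lower (-1.43). Msx2 was also called without OC2 (1.30) or OT2 (1.10). With a pseudocount of 1 Lif (0.52) and Calca (0.81) fell short.

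Of the other ligands none was called between the organs. Bmp2 was higher in the ovary in 7 of 7 mice, with an exact paired permutation p of 0.0156. Its log2 difference was -0.88 (SE 0.22, adjusted p = 0.0043 by limma), under the fold cutoff. Its levels were 2.63 to 4.37 FPKM in ovaries and 1.20 to 3.72 FPKM in uteruses. Ihh, which granulosa cells also make, was at 2.13 to 6.62 FPKM in OC and 2.65 to 7.30 FPKM in OT ovaries. It was higher in the ovary in 6 of 7 mice, with OC1 as the exception, and the log2 difference of -0.99 (SE 0.47) had an adjusted p of 0.0927 by limma. Hbegf had a difference of -0.02 (95% interval -0.42 to 0.38) and was higher in the uterus in 3 of 7 mice. In the 3 OC mice alone, an alternative chosen after the data were seen, the difference of Msx2 was 0.16. That of Lif was 1.16 with an adjusted p of 0.0565 by limma. Bmp2 was called lower in the uterus there, at -1.01 with an adjusted p of 0.0036 by limma.

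**Figure D4:**
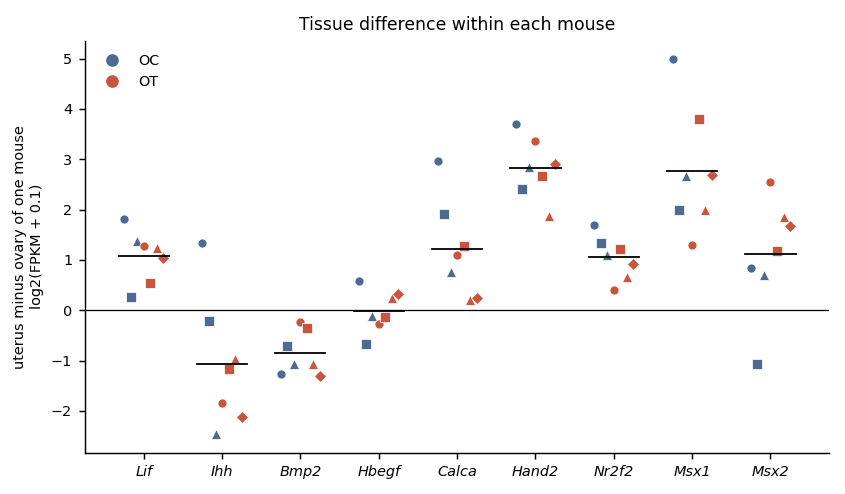
Log2 difference between the uterus and the ovary of the same mouse (vertical axis, log2 of FPKM + 0.1) for each gene (horizontal axis). Each point is 1 mouse, blue for OC and red for OT, with the marker shape for the mouse number, and black lines give the mean of the 7 mice. Hand2, Msx1, Calca, Lif and Nr2f2 are above 0 in 7 of 7 mice, and Bmp2 is below 0 in 7 of 7.

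The low ovarian levels of Hand2 were set beside those of the uterine marker Hoxa10. Hoxa10 was chosen for this after its values were seen, so the correlations describe these libraries and carry no p. It was at 3.92, 53.4 and 27.7 FPKM in the ovary libraries OC1 to OC3 and at 0.572, 6.09, 48.9 and 23.4 FPKM in OT1 to OT4. Hand2 was at 1.38, 5.11 and 3.06 FPKM and at 0.966, 2.04, 5.21 and 2.72 FPKM in the same order. Both genes were thus highest in OC2 and OT3 and lowest in OT1. Over the 7 ovaries, on the log2 scale, Pearson's r was 0.964, Spearman's rho was 0.964, and r was 0.925 without OC1 and OT1, the libraries farthest from the median of Hoxa10. Centred on the group means, r was 0.968. For Msx1, at 2.80, 11.0 and 5.34 FPKM in OC and 3.37, 2.79, 6.88 and 4.80 FPKM in OT ovaries, r was 0.782, rho was 0.857, and r without OC1 and OT1 was 0.935. The other 7 genes had r between -0.628 and 0.656 and rho between -0.714 and 0.786. Without OC1 and OT1 their r ran from -0.948 for Lif, whose r over all 7 ovaries was -0.0026, to 0.87 for Nr2f2.

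The ovary libraries also held oviduct and ciliated cell genes, with a summed level of 467 to 987 FPKM. Smooth muscle genes summed to 614 FPKM in the OT1 ovary, the lowest, and to 1850 FPKM in the OC2 ovary, the highest, which are also the lowest and the highest of Hoxa10. Whether Hand2 in these libraries came from the ovary or from tissue around it was not tested.

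**Figure D5:**
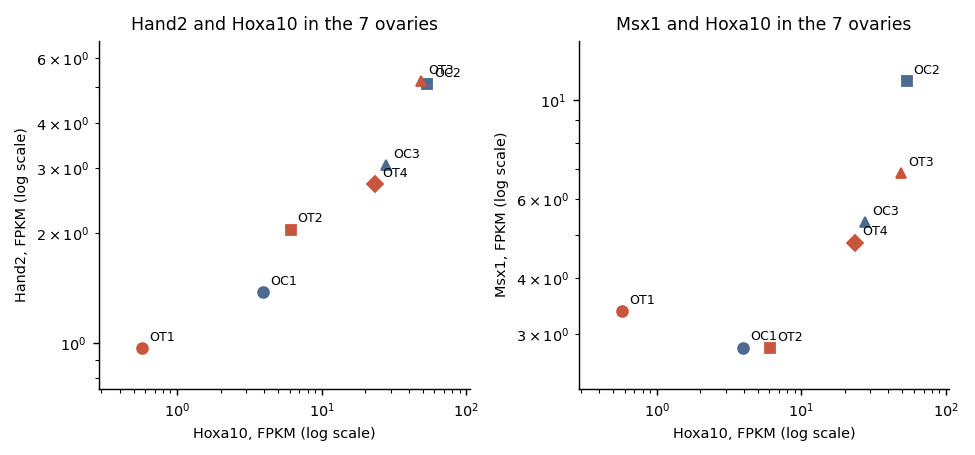
FPKM of Hand2 (left) and Msx1 (right) against Hoxa10 in the 7 ovary libraries, all axes on a log scale. Blue marks OC and red OT, and labels give the mouse. Hand2 rises with Hoxa10 from OT1 to OC2 and OT3, with r = 0.964 on the log2 scale.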

How the data were processed

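RNA was sequenced with stranded libraries depleted of rRNA. The authors trimmed the reads with Skewer, mapped them to mm10 with STAR 2.5 and estimated the deposited FPKM with Cufflinks 2.2.1 in a strand-specific mode. FPKM is scaled to mapped fragments, so depth is unknown. Relative depth was estimated from the most frequent log2 ratio to the OC1 ovary, over genes with 0.005 to 0.08 FPKM in both libraries. It lay between 0.824 and 1.18 of the OC1 ovary and rested on only 62 to 148 genes per library. Reads were not used here, so Cuffdiff was replaced.

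Groups and mouse numbers came from the labels. The filter kept genes averaging 0.5 FPKM or more in the compared libraries, and limma 3.58.1 (R 4.3.3, with a trend) was run on log2(FPKM + 0.1), a scale that understates changes of low genes, without further scaling. Each tissue was fitted alone, and the tissue comparison and the tissue difference in change in a fit of 14 libraries. Adjusted p were by Benjamini-Hochberg over all tested genes. Exact permutation tests were two-sided, as 2 times the smaller tail. Each limma step was first tested on simulated data. Other steps used Python 3.11.15, numpy 2.4.6, pandas 2.3.3, scipy 1.17.1 and matplotlib 3.10.9.

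All 21853 identifiers matched a symbol. A partner gene is not reported here. The 9 genes, the 9 partner lists and the marker lists were chosen with earlier results of these data known. Of the partners, those named were the called genes and up to 2 per list with the highest uterine mean. Fgf1, Fgf2, Fgf9, Fgf18, Hhip, Gli2, Gli3, Sufu, Ncoa2, Stat3 and the gland genes Prss28, Prss29, Cxcl15, Ltf and Muc1 were chosen after values were seen. So were Hoxa10 as a partner of the ovarian levels, the printed windows and the motifs, which were narrowed from a longer set of strings. The stromal and uterine epithelial markers named singly were also chosen after values were seen. Motifs were searched on both strands. Alternatives were pseudocounts of 1 and 0.01, no filter and a minimum of 1 FPKM, scaling each library to the same total (TPM), quantile normalization, robust eBayes, a block by replicate number or mouse, a single fit of all libraries, and leaving out each mouse.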

Additional observations from a re-analysis of the deposited data

Results flagged for a closer look

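For 3 of the 9 genes the change with AMSC-CM differed between uterus and ovary at an unadjusted p of at most 0.05 in the limma fit of 14 libraries, against 5.12% of all tested genes. The difference, uterus minus ovary on the log2 scale, was 1.65 for Msx2 (SE 0.68, unadjusted p = 0.0308), -1.17 for Calca (SE 0.50, unadjusted p = 0.035) and -0.57 for Nr2f2 (SE 0.26, unadjusted p = 0.0491). The adjusted p by limma was 0.844 for each of the 3, so none passed the correction. Without 1 mouse each lost the unadjusted p of 0.05. Calca did so without OC1 (-0.63, unadjusted p = 0.186 by limma), OC2, OT3 or OT4, Msx2 without OC2 (1.04, unadjusted p = 0.104), OT1 or OT4, and Nr2f2 without OC1 (-0.42, unadjusted p = 0.207 by limma), OC2, OT1, OT3 or OT4. Msx2 was below 0.57 FPKM in every ovary, where its change was not tested alone. The part of adipocyte and squamous RNA in OT uteruses in these differences was not tested. No library of the 18 sets of 4 OT values, 9 genes in 2 tissues, stood apart by Dixon's test.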

How the results depend on the processing

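Members called in the uterus were 0 with a pseudocount of 1, 2 in a fit of all 14 libraries and 0 to 2 with each mouse left out. All genes called in the uterus were 259 with a pseudocount of 1 and 295 to 605 with a mouse left out. In the ovary they were 18 with a pseudocount of 1, 159 with no filter, 42 at a minimum of 1 FPKM and 51 to 137 with a mouse left out. Members called between tissues were 3 with a pseudocount of 1. With a mouse left out, 0 to 8 genes passed in the tissue difference in change. Scaling each library to the same total, which moved the median of all uterine genes from 0.01 to -0.13, changed the split from 316 higher and 94 lower to 273 and 146.

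Correlations of deviations between OC and OT mice of the same replicate number ran from -0.011 to 0.335. Between mice of different numbers they ran from -0.393 to 0.263. The highest was that of OC1 with OT1 in the ovary, so the check did not settle whether numbers pair mice. The main fits used no such pairing. The replicate block, without OT4, called 666 uterine and 103 ovarian genes. With the mouse as a block, 5 members were called between tissues and 0 in the tissue difference in change.

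That scaling turned Bmp2 in the uterus (-0.0208) and the tissue difference in change of Hbegf (-0.0345), and quantile normalization turned Hbegf between tissues (0.13). With a mouse left out, directions also turned in the uterus for Ihh (-1.52 to 0.17), Lif (-0.22 to 0.39), Hbegf (-0.11 to 0.53) and Bmp2 (-0.17 to 0.35). In the ovary they turned for Calca (-0.33 to 0.48), Nr2f2 (-0.0901 to 0.15), Ihh (-0.22 to 0.57), Hand2 (-0.75 to 0.16), Msx1 (-0.85 to 0.12) and Hbegf (-0.0497 to 0.10). Between tissues Hbegf turned (-0.18 to 0.14), as did the tissue difference in change of Lif (-0.57 to 0.20), Hand2 (-0.57 to 0.0746), Msx1 (-1.39 to 0.11) and Hbegf (-0.19 to 0.44). The cause was not tested. Of 530 member results under alternatives, 482 kept direction and side of the threshold, 12 lost a call and 12 gained one.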

Other observations

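The 9 genes did not vary as a block among the 7 uteruses. On the log2 scale the 36 pairwise Pearson r ran from -0.711 for Calca and Msx2 to 0.92 for Msx1 and Nr2f2, and r was 0.841 for Lif and Msx2, 0.786 for Hand2 and Nr2f2 and 0.022 for Hand2 and Ihh. These r are over 7 libraries of 2 groups and describe them only. The genes most alike to each member over the same libraries had r between 0.924 and 0.997. They were led by Dlg3 for Msx1 (r = 0.997), Gm2000 for Bmp2 (0.996), Hdgfl3 for Calca (0.994), Eda for Nr2f2 (0.992), Fbxo42 for Hand2 (0.991), Acot7 for Ihh (0.986), Lrtm2 for Msx2 (0.981), Gm20425 for Lif (0.967) and Eef1g for Hbegf (0.962).

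The OC1 uterus, highest in Ihh and Msx1, did not take the same place in all gland and epithelial genes. The gland proteases Prss28 and Prss29 were at 0.118 and 0.891 FPKM in OC1 and at 14.6 and 51.5 FPKM in OC2 and 16.1 and 97.9 FPKM in OC3. In OT1 to OT4 Prss29 was at 2.44, 1.15, 16.8 and 72.4 FPKM. Cxcl15 was at 2.77 FPKM in OC1, above OC2 (1.39), OC3 (1.42), OT1 (0.179) and OT2 (0.376) and below OT3 (3.01) and OT4 (3.29). OC1 was second highest of the 7 uteruses in Ltf (190 FPKM) and Muc1 (20.0 FPKM).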
